A study of Mus musculus with 18 samples.

Results

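The genes described here encode the proteins of the small ribosomal subunit. They were chosen by symbol, as the protein-coding genes named Rps followed by a number or by the letter a; the ribosomal S6 kinases and Rps19bp1 were left out because they are not ribosomal proteins, and Rps29, Rps21 and Rps27rt were kept apart. This gave 30 of the 25957 genes with deposited counts, and all 30 had enough counts to be tested. The rule reads symbols alone, but it was written with earlier results of these data known, and Rps29, Rps21 and Rps27rt had risen at 30 s of trypsin in those.

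The cells were C2C12, an established line of mouse myoblasts, grown with 20% fetal bovine serum, and their mRNA was measured with BRB-seq, in which the cDNA of every sample gets a barcode before pooling and reads fall near the poly(A) tail. There were 18 libraries in 6 groups of 3. In the first 3 groups the cells were washed and met 200 µL of 0.25% trypsin at 37 °C, for 30 s (Trypsin 30 s), 3 min (Trypsin 3 min) or 30 min (Trypsin 30 min). For Low trypsin the enzyme was removed at once, and the dish stood at 37 °C for 3 min. In the Cold-active protease group, 200 µL of a protease that works in the cold was applied for 5 min at 4 °C with shaking. Control cells were lysed on the plate and scraped off, without enzyme. The treatments therefore differed from Control in washing, incubation and harvest as well as in the enzyme, and the effects of these steps cannot be told apart. The labels call the 3 libraries of each group lots; nothing says that lots were separate cultures, so the p-values cover the spread among these libraries alone, and that spread may be technical.

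The small subunit is the part of the ribosome that binds the mRNA and the initiator tRNA, scans for the start codon and checks the match between codon and anticodon. Its proteins are made in matched amounts, assembled on the ribosomal RNA in the nucleolus, and encoded by some of the most abundant mRNAs of a growing cell such as a myoblast. Those mRNAs are short and stable, and most of them begin with a run of pyrimidines, the terminal oligopyrimidine (TOP) tract, through which growth signals that pass by mTOR set how strongly they are translated.

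The start sites show how far this shared feature was visible in the annotation. RefSeq start windows on GRCm38.p6 were found for 23 of the 30 members, with 27 starts in all. A C at the annotated start followed by at least 4 C or T was present at 5 of the 27 starts, which is 18.5%, against 2.51% of all 32851 starts in the same table. A run of 8 or more C or T that came within 5 bases of the start was present at 9 of the 27, or 33.3%, against 9.38% of all starts. The windows of the 5 members with the first pattern run from 10 bases before the annotated start to 20 bases from it, read 5′ to 3′ on the gene's strand, with the longest C/T run at the start in capitals. That of Rps16, the member that fell most at 30 s, is printed as a contrast, since its window held no such run.
Rps10: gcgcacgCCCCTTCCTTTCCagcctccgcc
Rps15a: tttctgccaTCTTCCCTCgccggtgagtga
Rps18: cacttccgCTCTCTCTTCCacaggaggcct
Rps27: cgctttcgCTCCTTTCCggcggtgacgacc
Rps6: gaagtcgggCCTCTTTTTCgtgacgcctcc
Rps16: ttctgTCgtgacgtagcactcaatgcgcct

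These windows lie at chr17:27635225-27635254 on the minus strand for Rps10, chr7:118116128-118116157 on the minus strand for Rps15a and chr17:33955646-33955675 on the minus strand for Rps18. Those of Rps27 and Rps6 lie at chr3:90213629-90213658 and chr4:86857348-86857377, both on the minus strand, and that of Rps16 at chr7:28350679-28350708 on the plus strand. The 5 members that share the pattern did not move alike: Rps15a, Rps18 and Rps6 fell at 30 s of trypsin, whereas Rps10 and Rps27 rose. A match in letters is a description of the annotated start, not of the start used in these cells.

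The 30 members lie on 12 chromosomes of GRCm38 in the GENCODE M21 annotation, 9 of them on chromosome 7. Their coding regions span 207 to 885 nt, with a median of 453 nt. Processed copies of ribosomal protein mRNAs are spread through mammalian genomes, and this shows in the sequences: in 24 of the 30 members more than 50% of the 45-base stretches of the coding region and the first bases after it also occur in the transcripts of another gene, with a median of 81.8% over the members. The sources used here do not say how the authors counted reads with several matches. The levels of these members are therefore uncertain, by an amount that the shared stretches do not measure. In Rps12 and Rps27 100% of the stretches are shared. Pseudogene copies held 3.61% and 1.27% of the counts of each gene and its copies together. For Rps3a1 and Rps10 copies held 88.1% and 44.1%. Values with the copies joined are given for some members.

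Library totals were 1490869 to 2480690 counts, at which 3 counts correspond to 1.21 to 2.01 CPM, the count scaled to the total of its library. The myoblast markers summed to 1280 to 1540 CPM in each library, with Des at a mean of 882 CPM and Myod1 at 58.2 CPM. Msc and Myf6, also on that list, had means of only 1.29 and 0.827 CPM. Myf5, at a mean of 95.6 CPM, was called higher than Control at 30 s, at 30 min and in Low trypsin. The markers of differentiated muscle summed to 112 to 185 CPM, with Acta1 and Myog at means of 81.9 and 28.2 CPM. Acta1 was called lower than Control at 30 min. The immune markers summed to 1.24 to 6.75 CPM, the endothelial markers to 0 to 1.56 CPM and the adipocyte markers to 0 to 1.2 CPM, and no gene of these lists was testable. The epithelial markers summed to 176 to 244 CPM, nearly all of it Krt14 at a mean of 211 CPM, with Epcam, Cdh1 and Krt8 at means of 0.076, 0.314 and 1.01 CPM. The neural markers summed to 28.7 to 45.7 CPM, nearly all of it Tubb3 at a mean of 36.1 CPM, and neither Krt14 nor Tubb3 was called in any comparison.

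Together the members held 2.25% ± 0.0067 of all counts after 30 s of trypsin, 2.23% ± 0.0063 after 3 min, 2.85% ± 0.097 after 30 min, 2.79% ± 0.083 in Low trypsin, 3.05% ± 0.040 with the cold-active protease and 3.08% ± 0.039 in Control (mean ± SD, n = 3 each). The libraries of 30 s and 3 min lay well below all others, while those of the cold-active protease and Control overlapped. In bulk RNA, fewer cells and less RNA per cell cannot be told apart, and a share says nothing of the amount per cell. The 50 genes of the large subunit held 2.77% ± 0.013, 2.73% ± 0.011 and 3.09% ± 0.051 after 30 s, 3 min and 30 min, 3.12% ± 0.077 in Low trypsin, 3.28% ± 0.042 with the cold-active protease and 3.39% ± 0.068 in Control (mean ± SD, n = 3 each).

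**Figure D1:**
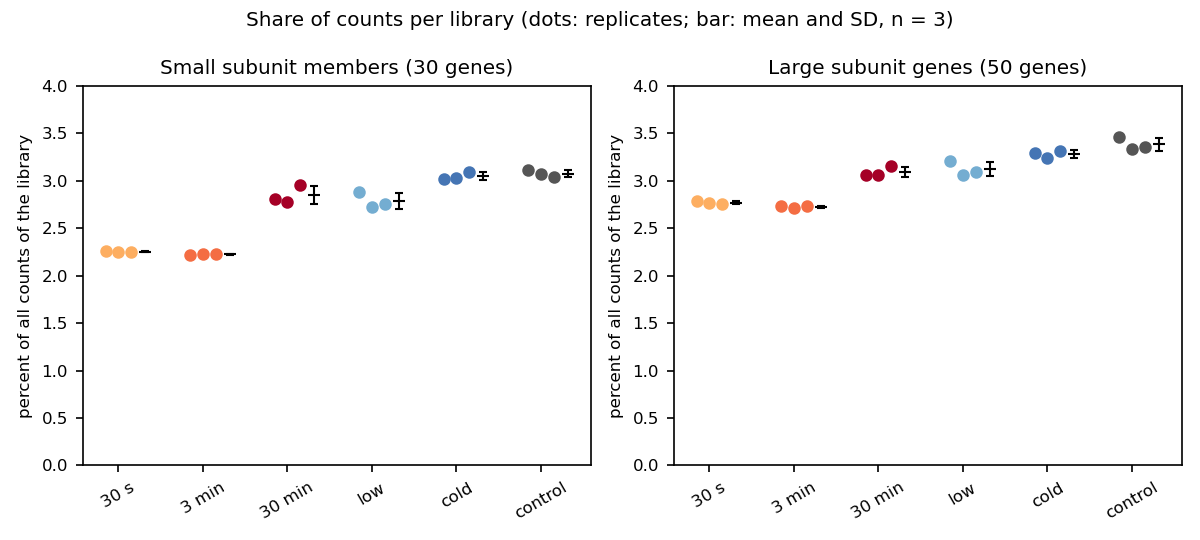
Share of the counts of each library (y axis, percent) held by the 30 small subunit members (left) and the 50 large subunit genes (right), with 3 libraries a group as dots and the mean and SD as a bar. The 6 libraries of 30 s and 3 min are the lowest in both panels.

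Across the 6 groups, 29 of the 30 members differed (F test in edgeR, adjusted p below 0.05), where 11.5% of all 10075 tested genes did. A gene is referred to as called where its Benjamini-Hochberg adjusted p over all tested genes was under 0.05. The exception was Rps3a1, at an edgeR adjusted p of 0.157. All levels below are CPM scaled by TMM, edgeR's scaling between libraries, and are compared within a gene only. With 3 libraries a group the smallest exact two-sided p is 0.1, so the calls rest on edgeR's estimate of the spread over all genes.

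Trypsin for 30 s gave the most called members of the 5 treatments against Control. Of the 30 members 26 fell, where 3.7% of all tested genes fell, and 3 rose, where 3.24% of all genes did. With Rps29, Rps21 and Rps27rt counted in, 26 of 33 fell and 6 rose. The median log2 fold change of the members was -0.58, against 0.0028 over all tested genes. The 26 that fell and the 3 that rose also had no overlap between the libraries of the groups, a separation that 11% of all genes had downward and 10.9% upward. Counts for the mRNAs of the large subunit moved in the same direction, with 34 of 49 tested genes lower, 3 higher and a median of -0.37.

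Rps16, a protein of the head of the subunit whose tail reaches the tRNA in the peptidyl site, had 244, 240 and 240 CPM after 30 s, 291, 306 and 304 CPM after 3 min and 313, 298 and 293 CPM after 30 min. It had 405, 379 and 378 CPM in Low trypsin and 384, 407 and 451 CPM with the cold-active protease, against 553, 522 and 561 CPM in Control. Every treated library lay below every Control library. The log2 fold change at 30 s was -1.17 ± 0.062 (SE, edgeR adjusted p = 1.18e-20), a ratio of 0.443, and no other member fell further at that time.

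Rps14, a protein of the platform of the subunit, had 2047, 2049 and 1993 CPM after 30 s, 2175, 2138 and 2232 CPM after 3 min and 3031, 2947 and 3428 CPM after 30 min. Its levels were 2979, 2861 and 2948 CPM in Low trypsin and 3417, 3632 and 3645 CPM with the cold-active protease, against 3470, 3611 and 3493 CPM in Control. The 6 libraries of the short trypsin times were the lowest, those of 30 min and Low trypsin lay between, and those of the cold-active protease overlapped Control. At 30 s the log2 fold change was -0.80 ± 0.045 (edgeR adjusted p = 5.43e-20). Ndst1 overlaps Rps14 on the other strand and had a mean of 91.7 counts a library; the sources used here do not say whether counting used the strand.

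Rps18, which sits in the head and takes part in the contacts with the large subunit, had 748, 729 and 741 CPM after 30 s, 756, 749 and 792 CPM after 3 min and 1267, 1160 and 1263 CPM after 30 min. The Low trypsin libraries had 1123, 1128 and 1160 CPM and those of the cold-active protease 1291, 1315 and 1348 CPM, against 1314, 1317 and 1220 CPM in Control. Its levels at 30 s and 3 min were thus clear of all others, and at 30 min they overlapped Control. The log2 fold change was -0.80 ± 0.049 at 30 s (edgeR adjusted p = 1.56e-18) and -0.75 ± 0.050 at 3 min (edgeR adjusted p = 2.23e-17). Vps52 lies over Rps18 on the other strand, with a mean of 49.3 counts a library.

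Others fell by similar amounts at 30 s. Rps27a, which is made as a fusion with ubiquitin, had a log2 fold change of -0.88 ± 0.063 (edgeR adjusted p = 2.87e-16). Rps23, which lines the decoding centre, stood at -0.97 ± 0.072 (edgeR adjusted p = 1.28e-15). Rps6, the substrate of the S6 kinases, is described with the cold-active protease below. Fau, the small subunit protein that is made as a fusion with a ubiquitin-like protein and that the choice by symbol leaves out, moved with them, at -0.75 ± 0.062 (edgeR adjusted p = 5.09e-14).

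The weakest falls among the called members at 30 s were those of the longest. Rpsa, also known as the laminin receptor, had 766, 800 and 779 CPM after 30 s, 869, 841 and 802 CPM after 3 min and 795, 731 and 795 CPM after 30 min. Its libraries had 765, 734 and 737 CPM in Low trypsin and 838, 808 and 833 CPM with the cold-active protease, against 889, 901 and 908 CPM in Control. All 15 treated libraries were below the 3 of Control, but by little. The log2 fold change was -0.20 ± 0.050 at 30 s (edgeR adjusted p = 0.00441) and -0.10 ± 0.051 at 3 min, which missed the threshold (edgeR adjusted p = 0.385).

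Against the others, 3 members rose at 30 s. Rps28, a small protein at the mRNA exit, had 312, 329 and 299 CPM after 30 s, 194, 192 and 216 CPM after 3 min and 135, 147 and 156 CPM after 30 min. It had 257, 224 and 200 CPM in Low trypsin and 180, 179 and 199 CPM with the cold-active protease, against 204, 179 and 172 CPM in Control. The 30 s libraries were the highest and the 30 min libraries the lowest, with no overlap between either and Control. At 30 s the log2 fold change was 0.77 ± 0.078 (edgeR adjusted p = 4.66e-11), and at 30 min it was -0.33 ± 0.088 (edgeR adjusted p = 0.0135). In Low trypsin the fold change of Rps28 was 0.30 ± 0.081 (edgeR adjusted p = 0.015), with overlap with Control, and the call ended in 3 of the 6 fits that left out 1 library, at the most without Low trypsin replicate 1 (edgeR adjusted p = 0.248).

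Rps27 and Rps27l are a pair of paralogs that can take the same place in the subunit, and 192 of the 252 bases of their coding regions are identical, or 76.2%. Rps27 had 204, 212 and 212 CPM after 30 s, 148, 119 and 137 CPM after 3 min and 129, 146 and 148 CPM after 30 min, with 225, 203 and 177 CPM in Low trypsin and 155, 159 and 168 CPM with the cold-active protease, against 143, 168 and 142 CPM in Control. The libraries of 30 s and of Low trypsin were above all others. Rps27 rose by 0.47 ± 0.085 in log2 at 30 s (edgeR adjusted p = 5.78e-05) and by 0.41 ± 0.086 in Low trypsin (edgeR adjusted p = 0.000855). Rps27l fell at 30 s, with a log2 fold change of -0.43 ± 0.063 (edgeR adjusted p = 5.07e-07), and further at 3 min, at -0.79 ± 0.066 (edgeR adjusted p = 6.09e-14); in Low trypsin its log2 fold change was 0.0092 ± 0.061 (edgeR adjusted p = 0.97). The difference between the paralogs was not tested.

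Rps10, which ubiquitin ligases mark when ribosomes collide, was the third. Its libraries had 29.5, 36.4 and 24.6 CPM after 30 s, 14.72, 18.03 and 16.08 CPM after 3 min and 27.0, 28.3 and 35.9 CPM after 30 min. They had 34.4, 29.2 and 33.6 CPM in Low trypsin and 23.3, 15.2 and 23.5 CPM with the cold-active protease, against 13.5, 24.4 and 10.4 CPM in Control. Control replicate 2 stood at about the level of the lowest 30 s library, and the other Control libraries were far lower. The log2 fold change was 0.89 ± 0.22 at 30 s (edgeR adjusted p = 0.00433), but the call ended in 2 of the 6 fits without 1 library (edgeR adjusted p = 0.133 without Control replicate 3). Pseudogene copies held 44.1% of the counts of Rps10 and its copies together, and with the copies joined the log2 fold change was 0.51 ± 0.14 (edgeR adjusted p = 0.0158).

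The 3 genes kept apart from the members had been higher at 30 s in the earlier results, so their values at 30 s are a description. Rps29, a small zinc-binding protein of the head, averaged 414 ± 1.9 CPM after 30 s, against 199 ± 16 CPM in Control (SD, n = 3 each), a log2 fold change of 1.06 ± 0.074. Rps21 had a log2 fold change of 0.29 ± 0.061 at 30 s and of -0.33 ± 0.063 at 3 min (edgeR adjusted p = 0.000183). Rps27rt, a copy of Rps27, averaged 34.2 ± 8.7 CPM after 30 s and 45.2 ± 14 CPM in Low trypsin, against 9.43 ± 3.1 CPM in Control (SD, n = 3 each), with log2 fold changes of 1.87 ± 0.25 at 30 s and of 2.24 ± 0.24 in Low trypsin (edgeR adjusted p = 6.6e-10 in Low trypsin). Rack1, a scaffold protein on the head, was called in none of the 5 comparisons with Control (edgeR); its fold change at 3 min had an unadjusted p of 0.00318 and an edgeR adjusted p of 0.0745. Over Rps29, Rps21, Rps27rt, Fau and Rack1, DESeq2 called 3 lower at 3 min and 2 in Low trypsin, against 2 and 1 by edgeR.

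**Figure D2:**
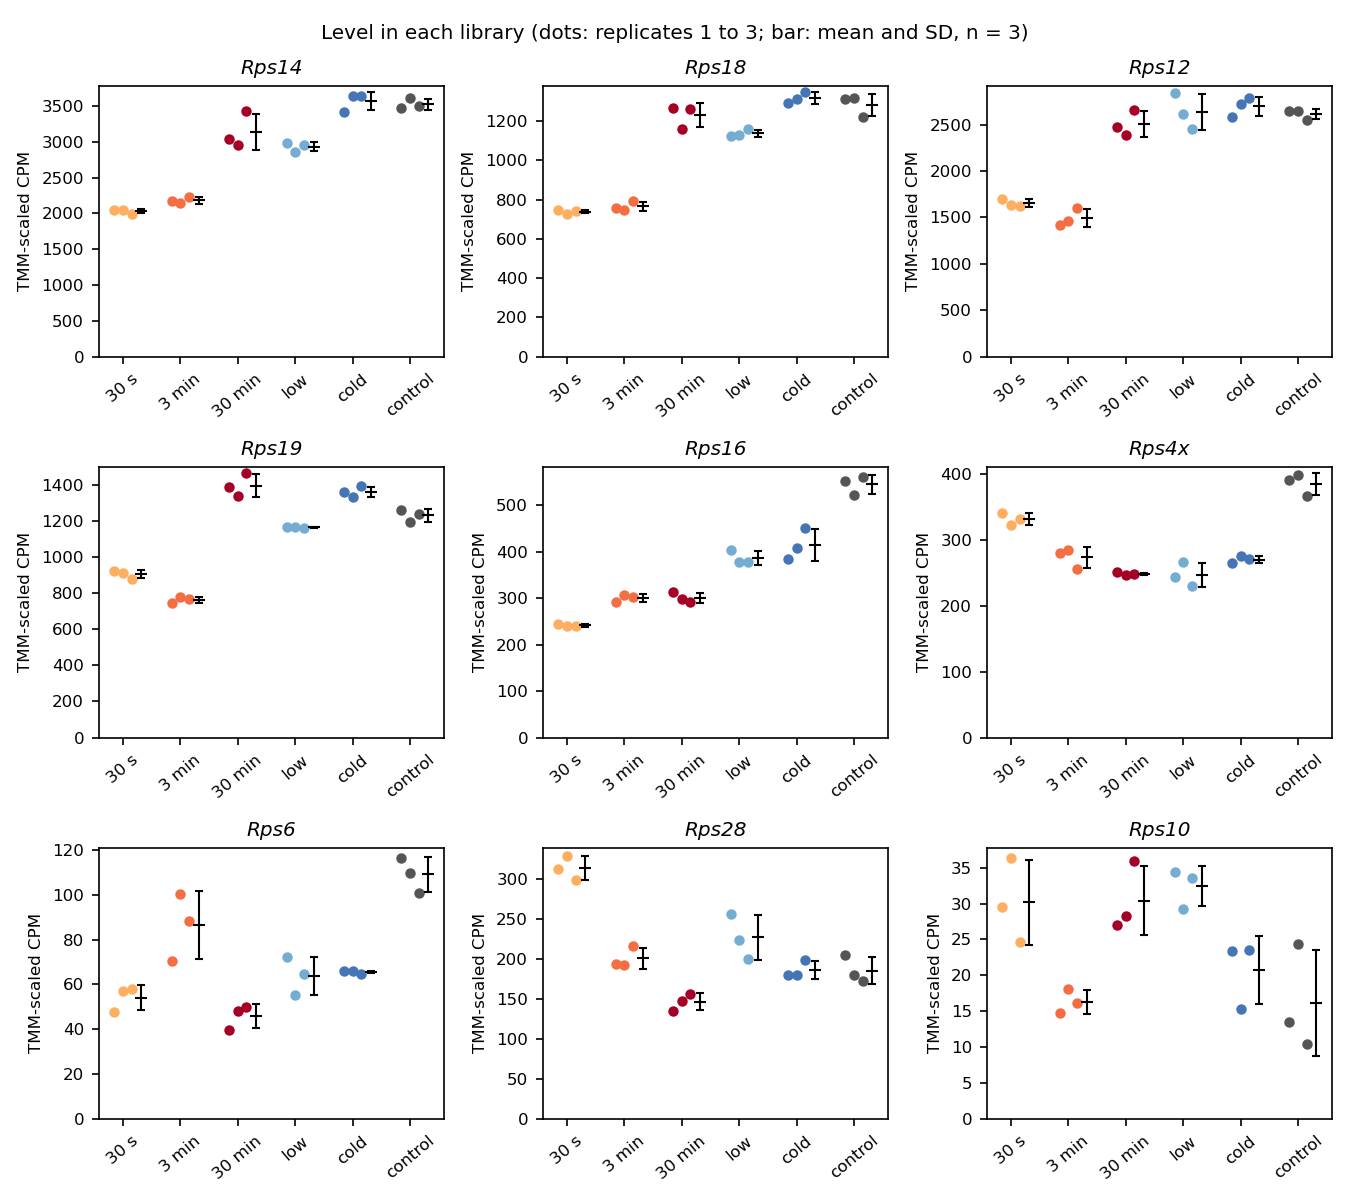
TMM-scaled CPM (y axis) of 9 members in each library, with groups along the x axis, dots for the 3 libraries and a bar for the mean and SD. Rps14, Rps18, Rps12 and Rps19 were low at 30 s and 3 min, Rps16, Rps4x and Rps6 were below Control in every treatment on average, Rps28 was highest at 30 s, and Rps10 stood at means of 30.2, 30.4 and 32.4 CPM at 30 s, 30 min and in Low trypsin, above its other groups.

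After 3 min of trypsin 23 members were lower than in Control, where 2.95% of all tested genes were, and none was higher, where 1.01% of all genes were (edgeR). At an unadjusted p under 0.05 the count of higher members was 0 as well, where 596 of all 10075 tested genes were higher. DESeq2 called 0 members higher and 24 lower, against 64 and 265 of all genes. The median log2 fold change was -0.69, against 0.0091 over all tested genes. This comparison and that of 30 s share the Control libraries. For the large subunit 29 of 49 tested genes were lower and 0 higher, at a median of -0.39, with 0 higher at an unadjusted p under 0.05 and by DESeq2.

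Rps12, a protein of the head, had the smallest p. Its libraries had 1702, 1637 and 1620 CPM after 30 s, 1413, 1457 and 1601 CPM after 3 min and 2476, 2388 and 2662 CPM after 30 min, with 2843, 2617 and 2449 CPM in Low trypsin and 2584, 2722 and 2781 CPM with the cold-active protease, against 2649, 2647 and 2551 CPM in Control. The 3 min libraries were the lowest, and the libraries of 30 min, Low trypsin and the cold-active protease all overlapped those of Control. The log2 fold change at 3 min was -0.81 ± 0.050 (edgeR adjusted p = 4.94e-18), a ratio of 0.570.

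Rps20, another protein of the head, had 757, 805 and 789 CPM after 30 s, 643, 648 and 682 CPM after 3 min and 1078, 1019 and 1152 CPM after 30 min. Low trypsin gave 1209, 1107 and 1077 CPM and the cold-active protease 1163, 1161 and 1170 CPM, against 1180, 1181 and 1101 CPM in Control. Again the 3 min libraries were the lowest, and the 3 other treatments overlapped Control. At 3 min the log2 fold change was -0.81 ± 0.053 (edgeR adjusted p = 1.66e-17).

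Rps24, a protein of the body of the subunit, had 902, 861 and 851 CPM after 30 s, 793, 749 and 814 CPM after 3 min and 1215, 1231 and 1322 CPM after 30 min. Its levels in Low trypsin were 1308, 1248 and 1228 CPM, and 1338, 1341 and 1371 CPM with the cold-active protease, against 1291, 1305 and 1351 CPM in Control. The 3 min libraries were once more the lowest, and 30 min, Low trypsin and the cold-active protease overlapped Control. At 3 min the log2 fold change was -0.75 ± 0.049 (edgeR adjusted p = 2.23e-17). Rps14 stood at -0.69 ± 0.045 (edgeR adjusted p = 1.36e-17).

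Rps3a1 was the exception over the whole design. It had 149, 149 and 140 CPM after 30 s, 176, 144 and 135 CPM after 3 min and 185, 120 and 166 CPM after 30 min, with 158, 125 and 142 CPM in Low trypsin and 161, 177 and 185 CPM with the cold-active protease, against 184, 195 and 143 CPM in Control. Each treatment overlapped Control, and the SD within a group reached 33.3 CPM, at 30 min. The copies of Rps3a1, the largest of which by counts is the annotated pseudogene Rps3a3, held 88.1% of the counts of Rps3a1 and its copies together. Joined, they had a log2 fold change of -0.29 ± 0.052 at 30 s (edgeR adjusted p = 4.76e-05) and of -0.19 ± 0.053 at 3 min (edgeR adjusted p = 0.0265).

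**Figure D3:**
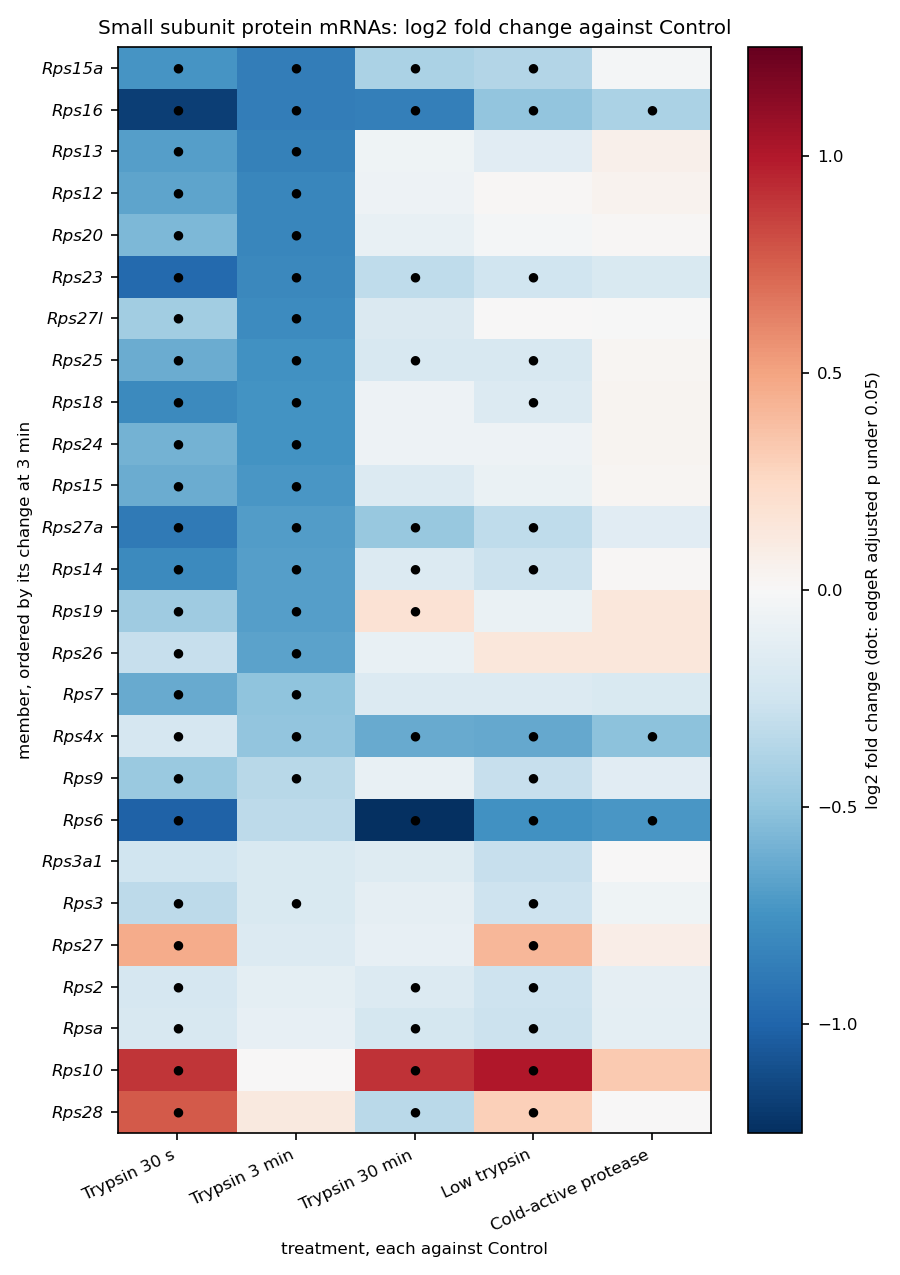
Log2 fold change against Control (colour) of 26 of the 30 members (down the page, in order of their change at 3 min) in the 5 treatments (across), with a dot where the edgeR adjusted p was under 0.05. Dots fill most of the first 2 columns, 13 and 16 of the members shown carry one at 30 min and in Low trypsin, and 3 carry one with the cold-active protease.

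From 30 s to 3 min the members did not move together. In Trypsin 3 min against Trypsin 30 s 8 members were lower, where 1.46% of all tested genes were, and 4 were higher, where 0.476% were, at a median of -0.077 against 0.0028 over all genes. The lower members with the smallest p were Rps28 at -0.65 ± 0.079 in log2, Rps26, which touches the mRNA near its exit, at -0.38 ± 0.050, Rps27 at -0.64 ± 0.089 and Rps27l at -0.36 ± 0.067, all with edgeR adjusted p of 0.000367 or less. Rps10 (-0.89 ± 0.23), Rps19, Rps20 and Rps4x were lower too. Among the members higher at 3 min than at 30 s were Rps6 at 0.69 ± 0.13 (edgeR adjusted p = 0.000295) and Rps16 at 0.31 ± 0.066 (edgeR adjusted p = 0.00191). Both kept their call in each of the 6 fits without 1 library, whereas the count of higher members was 2 without Trypsin 30 s replicate 2.

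At 30 min most members stood above their level at 3 min. In Trypsin 30 min against Trypsin 3 min 20 members were higher, where 2.83% of all tested genes were, and 2 were lower, where 1.2% were, with a median of 0.42 against -0.0042 over all genes. Rps19, the protein most often mutated in inherited red-cell aplasia (Diamond-Blackfan anaemia), moved furthest beyond its error. It had 925, 910 and 880 CPM after 30 s, 747, 777 and 769 CPM after 3 min and 1387, 1339 and 1464 CPM after 30 min, with 1170, 1165 and 1162 CPM in Low trypsin and 1360, 1335 and 1392 CPM with the cold-active protease, against 1262, 1193 and 1242 CPM in Control. Its 30 min libraries were above all Control libraries and its 3 min libraries below all others. Rps19 was higher at 30 min by 0.87 ± 0.048 in log2 (edgeR adjusted p = 3.79e-20). Rps12 followed at 0.75 ± 0.050 (edgeR adjusted p = 4.62e-17), and Rps18 and Rps13, a protein of the body, at 0.68 ± 0.050 and 0.79 ± 0.058 (edgeR adjusted p = 1.07e-15 for each). The 2 that fell were Rps6, at -0.91 ± 0.14 (edgeR adjusted p = 1.44e-06), and Rps28, at -0.45 ± 0.088 (edgeR adjusted p = 0.000243).

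Against Control, 12 members were lower at 30 min, where 2.61% of all tested genes were, and 2 were higher, where 2.07% were; the median was -0.16 against 0.0049 over all genes. The lower members included Rps2, Rps4x, Rps6, Rps14, Rps15a, Rps16, Rps23, Rps25, Rps27a, Rps28 and Rpsa. With pseudogene copies joined, Rps2 lost its call at 30 min, at -0.12 ± 0.041 (edgeR adjusted p = 0.0882). It also lost its call at 30 s, at -0.11 ± 0.041 (edgeR adjusted p = 0.0883). Rps16 stood at -0.86 ± 0.062 (edgeR adjusted p = 1.37e-15), Rps4x at -0.63 ± 0.065 (edgeR adjusted p = 1.53e-10), Rps6 at -1.24 ± 0.13 (edgeR adjusted p = 2.12e-10) and Rps27a at -0.48 ± 0.062 (edgeR adjusted p = 1.35e-07). The fall of Rps14 at 30 min, -0.17 ± 0.045 (edgeR adjusted p = 0.0138), lost its call in 3 of the 6 fits without 1 library (edgeR adjusted p = 0.155 without Trypsin 30 min replicate 2).

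The higher members at 30 min were Rps10, at 0.90 ± 0.23 (edgeR adjusted p = 0.0096), and Rps19, at 0.18 ± 0.047 (edgeR adjusted p = 0.0126). With 1 library left out, Rps10 lost its call in 3 fits (edgeR adjusted p = 0.156 without Control replicate 3) and Rps19 in 2 (edgeR adjusted p = 0.12 without Trypsin 30 min replicate 3). One higher member remained without any single Control library, and 0 without Trypsin 30 min replicate 3. The large subunit had 22 of 49 tested genes lower and 0 higher at 30 min by edgeR, at a median of -0.20. At an unadjusted p under 0.05, 2 of them were higher, where 816 of all 10075 tested genes were. DESeq2 called 0 of them higher.

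Low trypsin, in which cells were wetted with the enzyme and then kept without it for as long as the 3 min cells were kept with it, had a median change nearer to 0 than those of 30 s and 3 min and close to that of 30 min. Against Control 15 members were lower, where 1.9% of all tested genes were, and 3 were higher, where 3.3% were, with a median of -0.18 against -0.0029 over all genes. Those with the smallest p were Rps4x at -0.64 ± 0.064 (edgeR adjusted p = 5.21e-11), Rps16 at -0.49 ± 0.059 (edgeR adjusted p = 1.24e-08), Rps6 at -0.76 ± 0.12 (edgeR adjusted p = 5.05e-06) and Rps15a at -0.37 ± 0.058 (edgeR adjusted p = 7.25e-06). Rps14 stood at -0.27 ± 0.045 in log2 (edgeR adjusted p = 2.05e-05). Rps18, at -0.18 ± 0.049 (edgeR adjusted p = 0.0173), lost its call in 4 of the 6 fits without 1 library (edgeR adjusted p = 0.107 without Control replicate 2). The higher ones were Rps10 at 1.00 ± 0.22 (edgeR adjusted p = 0.00165, and 0.0669 without Control replicate 3), Rps27 and Rps28. Without Control replicate 3 only 1 member was called higher. The large subunit had 21 lower and 4 higher of 49 tested genes, at a median of -0.19.

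Set directly against the trypsin times, Low trypsin had 21 members higher than Trypsin 3 min, where 3.78% of all tested genes were, and 3 lower, where 0.576% were; the median was 0.46 against -0.0092 over all genes. The largest differences relative to their error were those of Rps12 at 0.82 ± 0.050 (edgeR adjusted p = 1.38e-18), Rps26 at 0.81 ± 0.050 (edgeR adjusted p = 1.4e-18), Rps20 at 0.78 ± 0.053 (edgeR adjusted p = 7.84e-17) and Rps24 at 0.68 ± 0.049 (edgeR adjusted p = 5.63e-16). The lower ones were Rps6 at -0.43 ± 0.12, Rps2 at -0.14 ± 0.041 and Rpsa at -0.17 ± 0.051, with edgeR adjusted p of 0.0256, 0.0349 and 0.0404. Each of these 3 calls ended in 4 or more of the 6 fits without 1 library, with edgeR adjusted p of up to 0.364, 0.205 and 0.301, and 0 or 1 lower member was left in each such fit.

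Against Trypsin 30 s, 21 members were higher in Low trypsin, where 2.55% of all tested genes were, and 2 were lower, where 0.427% were, with a median of 0.42 against -0.0019 over all genes. Rps12 led these at 0.67 ± 0.050 (edgeR adjusted p = 8.09e-15), followed by Rps18 at 0.62 ± 0.049 (edgeR adjusted p = 6.98e-14), Rps14 at 0.53 ± 0.045 (edgeR adjusted p = 4.41e-13) and Rps24 at 0.53 ± 0.049 (edgeR adjusted p = 3.61e-12). The lower ones were Rps4x, at -0.43 ± 0.064 (edgeR adjusted p = 1.8e-06), and Rps28, at -0.47 ± 0.076 (edgeR adjusted p = 1.05e-05).

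The cold-active protease gave the fewest called members of the 5 treatments. By edgeR, 3 were lower, where 0.467% of all tested genes were, and 0 were higher, where 0.199% were. At an unadjusted p under 0.05 these counts were 10 and 2, where 455 and 430 of all 10075 tested genes were lower and higher. DESeq2 called 3 and 0 members, where it called 32 and 9 of all genes. The median was 0.0072 against -5.6e-05 over all tested genes. Of 49 large subunit genes, 6 were lower and 0 higher by edgeR, at a median of -0.062. DESeq2 called 4 of them lower and 0 higher. At the unadjusted p 16 of them were lower and 4 higher.

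The 3 lower members were Rps4x, Rps6 and Rps16. Rps4x, a protein of the body encoded on the X chromosome, had 341, 322 and 331 CPM after 30 s, 280, 285 and 255 CPM after 3 min and 250, 246 and 247 CPM after 30 min. It had 243, 265 and 230 CPM in Low trypsin and 264, 274 and 271 CPM with the cold-active protease, against 390, 398 and 366 CPM in Control. Every treated library was below Control, and those of 30 s were the nearest to it. Rps4x fell by 0.51 ± 0.063 in log2 with the cold-active protease (edgeR adjusted p = 2.96e-07), against a fall at 30 s of 0.21 ± 0.062 (edgeR adjusted p = 0.0202).

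Rps6 had 47.8, 56.9 and 57.8 CPM after 30 s, 70.7, 100.6 and 88.5 CPM after 3 min and 39.6, 48.2 and 49.8 CPM after 30 min, with 72.2, 55.2 and 64.5 CPM in Low trypsin and 65.8, 65.9 and 64.9 CPM with the cold-active protease, against 116.8, 109.9 and 100.9 CPM in Control. The 3 min libraries spread widest and came nearest to Control, and the 30 min libraries were among the lowest. The log2 fold change with the cold-active protease was -0.73 ± 0.12 (edgeR adjusted p = 6.59e-05), at 30 s it was -1.01 ± 0.12 (edgeR adjusted p = 4.27e-09), and at 3 min -0.33 ± 0.12, which missed the threshold (edgeR adjusted p = 0.125). Pseudogene copies held 18.1% of the joined counts of Rps6, and with them the fold change with the cold-active protease was -0.70 ± 0.10 (edgeR adjusted p = 1.11e-05). Rps16 stood at -0.40 ± 0.059 with the cold-active protease (edgeR adjusted p = 1.5e-05).

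Directly against Trypsin 3 min, 21 members were higher with the cold-active protease, where 2.84% of all tested genes were, and 1 was lower, where 0.864% were, at a median of 0.55 against -0.0078 over all genes. Rps19 led at 0.83 ± 0.048 (edgeR adjusted p = 2.84e-19), with Rps12 at 0.86 ± 0.050 (edgeR adjusted p = 3.35e-19), Rps26 at 0.81 ± 0.050 (edgeR adjusted p = 1.54e-18) and Rps13 at 0.91 ± 0.057 (edgeR adjusted p = 2.76e-18). The lower one was Rps6, at -0.40 ± 0.12 (edgeR adjusted p = 0.0495), a call that ended in 5 of the 6 fits without 1 library (edgeR adjusted p up to 0.52). The groups also differed in enzyme, temperature and time, which cannot be told apart here.

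Coding length went with the change in some comparisons, and not always in the same direction. Over the 30 members, Spearman's rho between coding length and the log2 fold change was 0.11 at 30 s, 0.49 at 3 min, -0.082 at 30 min, -0.59 in Low trypsin and -0.48 with the cold-active protease, each against Control, and -0.72 for Low trypsin against Trypsin 3 min. These values are descriptions over genes measured in the same libraries. The 3 members with a coding region under 300 nt, Rps28, Rps27 and Rps27l, included 2 of the 3 that rose at 30 s. The longest, Rpsa and Rps2, had log2 fold changes of -0.27 to -0.10 and of -0.26 to -0.11 over the 5 treatments.

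**Figure D4:**
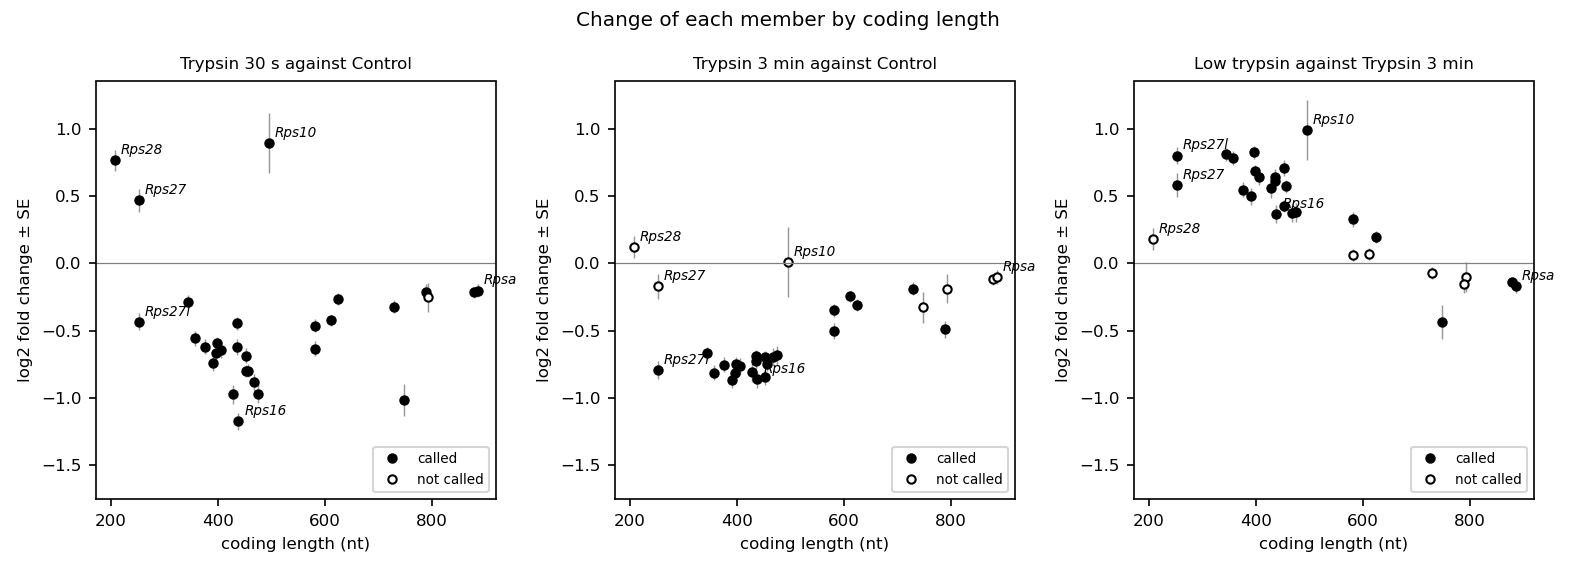
Log2 fold change with its SE (y axis) against coding length in nt (x axis) for the 30 members, in Trypsin 30 s against Control, Trypsin 3 min against Control and Low trypsin against Trypsin 3 min, with filled points for members called by edgeR. At 3 min the members under 500 nt other than Rps28, Rps27 and Rps10 fell most, and in Low trypsin against Trypsin 3 min the members under 500 nt, Rps28 aside, stood above the longer ones.

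Other short mRNAs moved as well. A set of 387 tested coding genes had an annotated mRNA of 800 nt or less, as 18 of the 30 members do. It left out the members and the large subunit genes but not the genes kept apart by name. Rps27rt, for one, had the highest change of the set at 30 s and in Low trypsin. At 30 s 137 of the 387 were lower and 19 higher, against 3.7% and 3.24% of all tested genes. The median log2 fold change was -0.26. At 3 min 138 were lower and 2 higher, with a median of -0.33, against 2.95% and 1.01% of all genes. At 30 min 47 were lower and 6 higher, with a median of -0.087, against 2.61% and 2.07%. In Low trypsin 29 were lower and 23 higher at a median of -0.037, against 1.9% and 3.3%, and with the cold-active protease 14 were lower and 1 higher at a median of 0.0093, against 0.467% and 0.199%, all relative to Control. When a smooth trend of each library's log2 values with annotated mRNA length was taken out, the median change of the members was -0.30 at 30 s, -0.36 at 3 min and -0.056 at 30 min, and the count of lower members at 30 min was 7. At 3 min Rps12, Rps14 and Rps18 then stood at -0.39 ± 0.043, -0.35 ± 0.040 and -0.38 ± 0.048 in log2, still lower than Control by edgeR. At 30 s Rps28 and Rps27 stood at 1.32 ± 0.071 and 0.94 ± 0.080, further above Control than without this step. Rps27 and Rps28 were then higher than Control at 3 min too, at 0.43 ± 0.088 and 0.83 ± 0.077 (edgeR adjusted p = 0.00107 and 7.61e-12). The fall of Rps28 at 30 min lost its call in this setting, at -0.11 ± 0.080 (edgeR adjusted p = 0.553).

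Gene lists around the small subunit are read against the shares of all tested genes that were lower and higher. These were 3.7% and 3.24% at 30 s, 2.95% and 1.01% at 3 min and 2.61% and 2.07% at 30 min. They were 1.9% and 3.3% in Low trypsin and 0.467% and 0.199% with the cold-active protease. At an unadjusted p under 0.05, 797, 693, 832, 718 and 455 of the 10075 tested genes were lower in these comparisons, in that order. Higher at that p were 803, 596, 816, 849 and 430. Of 15 tested TOP mRNAs outside the ribosomal proteins, 3 fell at 30 s, 0 at 3 min and 3 at 30 min. In Low trypsin 4 fell, with the cold-active protease 1 did, and 2 rose, both at 30 min. Except at 3 min, the lower genes made up a larger share of this short list than of all genes. So did the higher genes at 30 min. With the cold-active protease that share rests on 1 gene. At 3 min 1 was lower and 1 higher at an unadjusted p under 0.05, and DESeq2 called 0. At 30 s, in Low trypsin and with the cold-active protease 0, 1 and 0 were higher at that unadjusted p, and 0 by DESeq2. Tpt1, a growth-related TOP mRNA, stood at -0.54 ± 0.046 at 30 s (edgeR adjusted p = 1.69e-13) and at -0.64 ± 0.047 at 30 min (edgeR adjusted p = 1.41e-15). Eef1a1, the elongation factor that brings tRNA to the ribosome, stood at -0.46 ± 0.11 at 30 s (edgeR adjusted p = 0.00382) and at -0.78 ± 0.12 in Low trypsin (edgeR adjusted p = 2.47e-06).

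Among 54 assembly factors of the small subunit 2 fell at 30 s, 0 at 3 min, 4 at 30 min, 2 in Low trypsin and 0 with the cold-active protease, and 0 rose in any of these (edgeR). At 30 s the share that fell was that of all genes. At an unadjusted p under 0.05, 6 were lower at 3 min and 4 with the cold-active protease. At that p 1, 0, 4, 2 and 1 were higher at 30 s, 3 min, 30 min, in Low trypsin and with the cold-active protease. DESeq2 called 1 lower at 30 s, 1 at 30 min and 1 in Low trypsin. Of all 10075 tested genes it called 314, 199 and 145 lower there. It called 0 assembly factors lower at 3 min and with the cold-active protease, and 0 higher in all 5 comparisons. Trmt112, a partner of RNA methyltransferases, fell at 30 s with a log2 fold change of -1.84 ± 0.39 (edgeR adjusted p = 0.000693), and so did Riok2, a kinase of late assembly, at -0.58 ± 0.17 (edgeR adjusted p = 0.0261).

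In the list of S6 kinases and the mTOR arm, 19 genes were tested. At 30 s 1 fell and 1 rose, near the shares of all genes: Eif4ebp1, the repressor of cap-dependent initiation, stood at -0.35 ± 0.071 (edgeR adjusted p = 0.000337), and Rheb, the activator of mTOR complex 1, at 0.30 ± 0.091 (edgeR adjusted p = 0.0299). Eif4ebp1 was also the 1 gene called at 30 min, at -0.26 ± 0.073 (edgeR adjusted p = 0.0222), and in Low trypsin, at -0.23 ± 0.071 (edgeR adjusted p = 0.0476). DESeq2 called 1 gene of the list lower at 30 s and 1 at 30 min, 0 higher at 30 s and 0 in Low trypsin. It thus did not call the rise of Rheb or the fall of Eif4ebp1 in Low trypsin. By edgeR 0 were called at 3 min or with the cold-active protease. In these 2 and 3 were lower at an unadjusted p under 0.05, and DESeq2 called 0.

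The tested genes whose group means followed those of Rps16 most closely were Polr2j, Ppp2r2a, Atp5g1 and Atp5j. Their Pearson correlations of log2 CPM over the 6 group means were 0.994, 0.989, 0.989 and 0.988. These genes were picked as the highest among the 10075 tested genes, over only 6 points. Over the 18 libraries their correlations were 0.797, 0.705, 0.929 and 0.944. Of the members, Rps27a came to 0.963 over the group means and Rps14 to 0.824, whereas Rps10 came to -0.524.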

How the data were processed

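BRB-seq libraries of C2C12 cells were analysed in 6 groups of 3 from the values the authors deposited. The submitters' processing notes name HISAT2 2.1.0 and the GRCm38 build, Trim Galore 0.6.6 with cutadapt 2.6, UMI-tools 1.0.1, DESeq2 1.28.1 and featureCounts 2.0.1, without settings. Every test used the whole-number counts per gene that the authors deposited. A deposited table labelled TPM matched CPM made from those counts, to within 1e-06, at 467226 of 467226 positions. The deposited normalized signal equalled the counts divided by size factors of 0.797 to 1.3. Neither entered a test.

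Each of 10 comparisons was fitted in edgeR 4.0.16 (R 4.3.3) with TMM scaling, filterByExpr by group, all 18 libraries in 1 fit and no covariate. A quasi-likelihood test with Benjamini-Hochberg adjustment over 10075 genes followed, and genes with an adjusted p under 0.05 were called. SE is the log2 fold change divided by the square root of F. Tested genes held 99.4% to 99.5% of the counts, and the common biological coefficient of variation was 6.08%. Libraries of a group differed by more than sampling noise, with a chi-square per degree of freedom between 1.43 and 2.72. Limits set by 3 counts cover counting error only. Positions, lengths and overlaps came from GENCODE M21; start windows came from RefSeq.

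Members, gene lists, named genes and tests were chosen with earlier results of these data known. Named with values per library were the 4 members Rps16, Rps14, Rps18 and Rps20, the 6 with the smallest and the 3 with the largest F test p, and members whose change went against the rest or held in most treatments. Fold changes were given for up to 4 members per direction and comparison by p. Giving Rps28, Rps27, Rps4x and Rps6 per library was chosen after their values were seen. Alternatives were other scalings, filters and fits, a replicate block, removal of a loess trend (span 0.3) with mRNA length, DESeq2 1.42.0, each library left out, other denominators for the share and, chosen after seeing the data, joining pseudogene copies that share 45-base stretches. Some genes are counted in the totals but not reported here by name. The fitting code was tested on simulated data.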

Additional observations from a re-analysis of the deposited data

Results flagged for a closer look

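The members below differed between neighbouring trypsin times by edgeR's test of the difference itself (adjusted p under 0.05); values are log2 fold changes of the later time over the earlier. Groups of 3 libraries were too small for a test of single outlying libraries.

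In Trypsin 3 min against Trypsin 30 s, the short-coding members Rps28, Rps27 and Rps27l were lower, at -0.65, -0.64 and -0.36. Rps10, Rps26, Rps4x, Rps20 and Rps19 were lower too, at -0.89, -0.38, -0.28, -0.25 and -0.24. Rps6 and Rps16 were higher at 3 min, at 0.69 and 0.31.

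In Trypsin 30 min against Trypsin 3 min, 20 members were higher. Rps10, Rps19, Rps13, Rps12 and Rps20 stood at 0.89, 0.87, 0.79, 0.75 and 0.72. Rps18, Rps24, Rps27l and Rps26 stood at 0.68, 0.68, 0.61 and 0.58. Rps15, Rps25, Rps14, Rps23 and Rps15a stood at 0.56, 0.55, 0.52, 0.49 and 0.47. Rps7, Rps9 and Rps27a stood at 0.33, 0.26 and 0.22. With the length trend removed, Rps10, Rps9 and Rps27a lost these calls. They then stood at 0.62 ± 0.23, 0.12 ± 0.047 and 0.027 ± 0.063 (edgeR adjusted p = 0.156, 0.192 and 0.917). Rps6 and Rps28 were lower, at -0.91 and -0.45.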

How the results depend on the processing

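Among the single members checked under the alternatives run, no called change reversed its direction. Changes that were not called could turn sign. With the length trend removed, Rps18 at 30 min against Control went from -0.062 to 0.072 in log2 (edgeR adjusted p = 0.503). Rps28 in Low trypsin against Trypsin 3 min, higher on average but not called, was then lower, at -0.54 ± 0.075 (edgeR adjusted p = 4.69e-07). Over all 190 called pairs of member and comparison 3 turned sign with the length trend removed, among them Rps27 in Low trypsin against 3 min (-0.013 in log2, edgeR adjusted p = 0.981) and Rps9 with the cold-active protease against 3 min (-0.012, edgeR adjusted p = 0.966), and 0 with copies joined. The median with the cold-active protease against Control, near 0, ran from -0.0169 to 0.0129 with 1 library left out; the other medians kept their sign. For single members named in the text, 733 of 756 values in other settings stayed on the same side of the threshold, 22 lost their call and 1 gained one; of 504 values with 1 library left out, 466 stayed and 38 lost their call. Of the summary values, 256 of 290 in other settings and 196 of 216 with 1 library left out moved by less than the limits set. With the length trend removed, the median log2 change of the members was -0.304 at 30 s, -0.361 at 3 min and -0.056 at 30 min against Control. It was -0.0266 for 3 min against 30 s, 0.248 for 30 min against 3 min, 0.194 for Low trypsin against 3 min, 0.149 for Low trypsin against 30 s and 0.301 for the cold-active protease against 3 min. In the same setting 2 members were higher at 3 min and 7 lower at 30 min against Control, 13 were higher in Low trypsin than at 30 s, and 3 were lower with the cold-active protease than at 3 min. In Low trypsin against 3 min 4 were then lower and 14 higher. The annotated mRNA lengths behind it can differ from those in these cells, as with Rps20, at 3706 nt for a coding region of 357 nt.

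The single lower member with the cold-active protease against 3 min became 0 under DESeq2 size factors, with no filter on low counts, with the replicate block and by the DESeq2 Wald test. The 3 lower members in Low trypsin against 3 min became 1 under upper-quartile scaling, with no filter and with only the 2 groups fitted, and 0 with copies joined. The 2 higher members at 30 min became 1 with no filter and with only the 2 groups fitted. With copies joined the median at 30 s was -0.562. Libraries left out one at a time gave a median of -0.589 to -0.562 at 30 s, 0 to 2 higher members at 30 min and 1 to 4 in Low trypsin against Control, and 2 to 3 higher members at 3 min against 30 s. They gave 0 to 1 lower members both in Low trypsin and with the cold-active protease against 3 min. The cause of these shifts was not tested.

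As a share of nuclear protein-coding counts, the members held 2.436%, 2.412% and 3.085% at 30 s, 3 min and 30 min, 3.034% in Low trypsin, 3.299% with the cold-active protease and 3.311% in Control. With the large subunit left out of the total, they held 2.318% at 30 s, 2.288% at 3 min, 2.876% in Low trypsin, 3.153% with the cold-active protease and 3.185% in Control. Libraries with the same lot number showed little shared deviation: 0 of 45 such pairs had a correlation over 0.1. The mean was 0.00186, against -0.000925 for pairs with other numbers, and 9 of 18 libraries correlated best with their own number. These values cannot show what a lot was, such as a shared culture or day. The replicate block changed no other call of a named member than that of Rps6 with the cold-active protease against 3 min (edgeR adjusted p = 0.0565).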

Other observations

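Pseudogene counts were highest in Low trypsin. All annotated pseudogenes together held 0.809% ± 0.045 of the counts at 30 s, 0.587% ± 0.027 at 3 min, 0.660% ± 0.049 at 30 min, 0.985% ± 0.018 in Low trypsin and 0.654% ± 0.012 with the cold-active protease, against 0.596% ± 0.050 in Control (SD, n = 3 each). Those that share 45-base stretches with the members held 0.209% ± 0.0057, 0.191% ± 0.0032 and 0.207% ± 0.0080 at 30 s, 3 min and 30 min. They held 0.241% ± 0.010 in Low trypsin and 0.195% ± 0.00038 with the cold-active protease, against 0.204% ± 0.0071 in Control (SD, n = 3 each). These shares were not tested.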
